A study of Rattus norvegicus with 6 samples.

Results

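The proteasome genes are those of the array's named genes whose rat symbol is Psm followed by a letter from a to g and a number. The rule took 46 genes, measured by 81 probes, out of 15284 genes that had a named probe. Of these, 30 encode constitutive subunits of the 26S proteasome, 14 of the 20S core and 16 of the 19S regulatory particle. A further 3 encode the immunoproteasome subunits Psmb8, Psmb9 and Psmb10, and 1, Psma8, the testis form of a core alpha subunit. The others are 4 activators, 1 inhibitor, 5 assembly chaperones, and Psmc3ip and Psme3ip1, which share the name but are not subunits. No probe was matched here to Psmb11, Psmd11, Psmg1 or Psmg3, and these genes were not analysed here.

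Liver RNA came from 3 rats dosed with NTA (nitrilotriacetic acid trisodium monohydrate, which binds metal ions) at 1000 mg/kg/day and from 3 rats given vehicle, each sample labelled with Cy3 and hybridised to 1 Agilent array. All were male Sprague-Dawley (Crl:CD(SD)) rats that were 5 weeks old when bought and were kept on a basal diet. The vehicle is purified water in one label and corn oil in another, and the time of sampling is given both as 28 days and as 9 weeks. With 3 animals named for either treatment, an array stands for an animal here, and litters or cages are not named.

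The 26S proteasome is the cell's main machine for destroying proteins tagged with ubiquitin. Its barrel-shaped 20S core holds the proteolytic sites inside rings of alpha and beta subunits, and the 19S regulatory particle binds, unfolds and feeds in the substrate. Under interferon gamma, and constitutively in many leukocytes, 3 catalytic beta subunits are replaced by the immunoproteasome subunits, whose peptides suit presentation on MHC class I. When proteasome activity runs short, the transcription factor NFE2L1 raises the constitutive subunit genes together through antioxidant response elements in their promoters.

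Values are log2 processed signal minus log2 of the 75th percentile of its array, so that 0 is the signal at that percentile, and they are given for replicates 1, 2 and 3 of each group in that order. The brightest probe stood for each gene, and a probe's level was not set against another probe's. All 46 genes were well above background on all 6 arrays with that probe. Between 62.4% and 64.5% of all probes were above background on each array. The 3 NTA arrays shared a slide with no vehicle array on it, and treatment and slide therefore cannot be told apart. Vehicle replicate 3 had a slide and a scan day of its own. The tissue label fitted the hepatocyte markers, since 8 of 8 (Alb and Apob among them) were above background on all arrays. Their summed signal, as a multiple of the 75th percentile, was 5120 to 5415 in NTA rats and 5646 to 6109.6 in vehicle rats, and 8 of 8 lay below 0 in the difference of NTA from vehicle (median log2 difference −0.15), with 0 past the test. In whole liver, fewer cells of a type and less RNA per cell cannot be told apart.

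No proteasome gene passed the test in either direction. Limma called 0 of the 46 at a Benjamini-Hochberg adjusted p under 0.05, against 0.0297% of the 30353 features tested, and 0 of the 46 had an unadjusted p under 0.05, against 7.57% of features. Differences of NTA from vehicle ran from −0.42 for Psma8 to 0.19 for Psmb10, with adjusted p between 0.684 and 0.995 in limma. The median was −0.091 over the 46 genes and −0.027 over all features, and 37 of 46 (80.4%) lay below 0, against 56.1% of features. Groups did not overlap for 10 of the 46, all with NTA lower, which is 21.7%, against 8.03% of features with NTA lower. With NTA higher there were 0 of 46, against 5.57% of features.

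**Figure D1:**
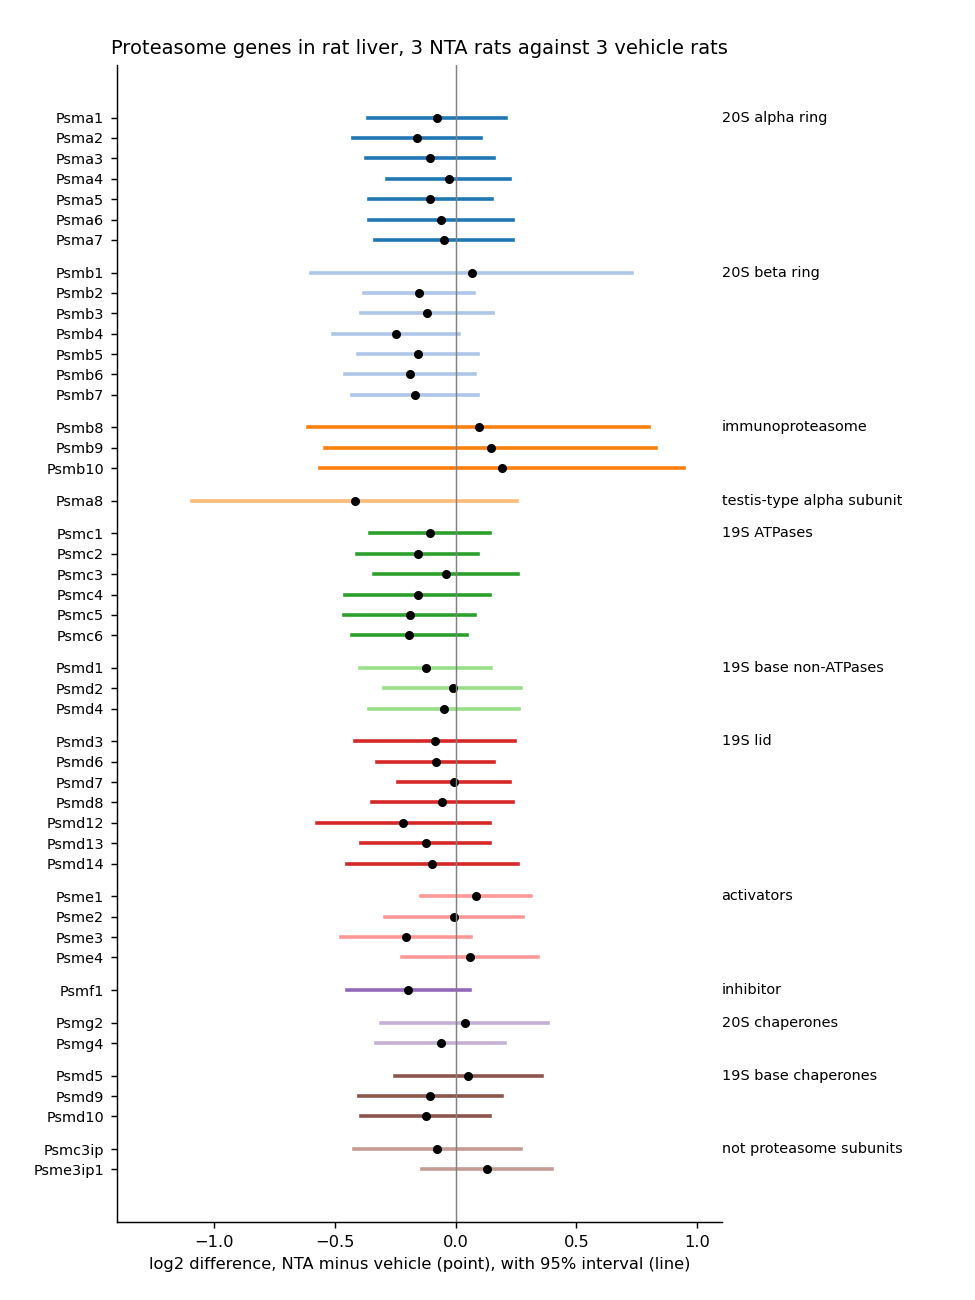
Log2 difference of NTA from vehicle on the horizontal axis for each of the 46 proteasome genes (rows, grouped by role), with black points for the limma estimate and coloured lines for its 95% interval. All intervals cross 0, and those of Psmb8, Psmb9, Psmb10, Psmb1 and Psma8 are wider than the rest.

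The 20S core and the 19S particle differed little between the groups. In the core 13 of 14 genes lay below 0 with a median of −0.11, and in the regulatory particle 16 of 16 with a median of −0.10. Of these 30 genes 0 passed the test. Groups did not overlap for 8 (26.7%), all with NTA lower, against 8.03% of features with NTA lower. The size of the shift rested largely on 1 rat. NTA replicate 2 was the lowest of the 6 arrays for 28 of the 30 genes, while it was the lowest for 18.4% of all features. NTA replicates 1 and 3 were the lowest for 0 of the 30. With each gene centred on its mean over the 6 arrays, the median of the core genes was 0.022, −0.20 and −0.0046 in NTA rats and 0.062, 0.084 and 0.040 in vehicle rats. For the regulatory particle it was 0.024, −0.18 and −0.016 in NTA rats and 0.14, 0.058 and −0.042 in vehicle rats. The groups were thus separate in the core median and overlapped in the regulatory particle median. Without NTA replicate 2, the medians were −0.050 for the core and −0.046 for the regulatory particle. In that setting 20 of the 30 genes lay below 0, against 55.7% of all features. The count was 24 of 30 with quantile normalization (52.2% of features), 26 with normexp background correction (63.3%) and 25 without vehicle replicate 1 (56.4%). The hepatocyte markers given above also lay lower in the NTA rats. Their summed signal was 5415, 5302 and 5120 in NTA replicates 1, 2 and 3, but single markers differed in which of these rats was lowest. It was replicate 3 for Alb, Apoa1, Ttr, Tf and Hnf4a, replicate 2 for Fgb and Apob, and replicate 1 for Serpina1. The sinusoidal endothelial markers with a probe, 5 of 7, were all above 0 in the difference, with a median of 0.52 and 0 past the test. Their summed signal was 78.1 to 86.9 in NTA rats and 60.6 to 73.0 in vehicle rats, without overlap. The erythroid markers with a probe, 4 of 5, were also all above 0, with a median of 0.51 and 0 past the test, and 2 of them were above background on all 6 arrays. Their summed signal was 275.2 to 416.5 in NTA rats and 224.7 to 253.4 in vehicle rats, again without overlap. Nearly all of that sum was Hbb. The groups of Hbb and Alas2 were separate, while those of the dim Rhag (log2 difference 0.061) and Epb42 (0.54) overlapped. The part of these cell types in the core and regulatory particle values was not tested.

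**Figure D2:**
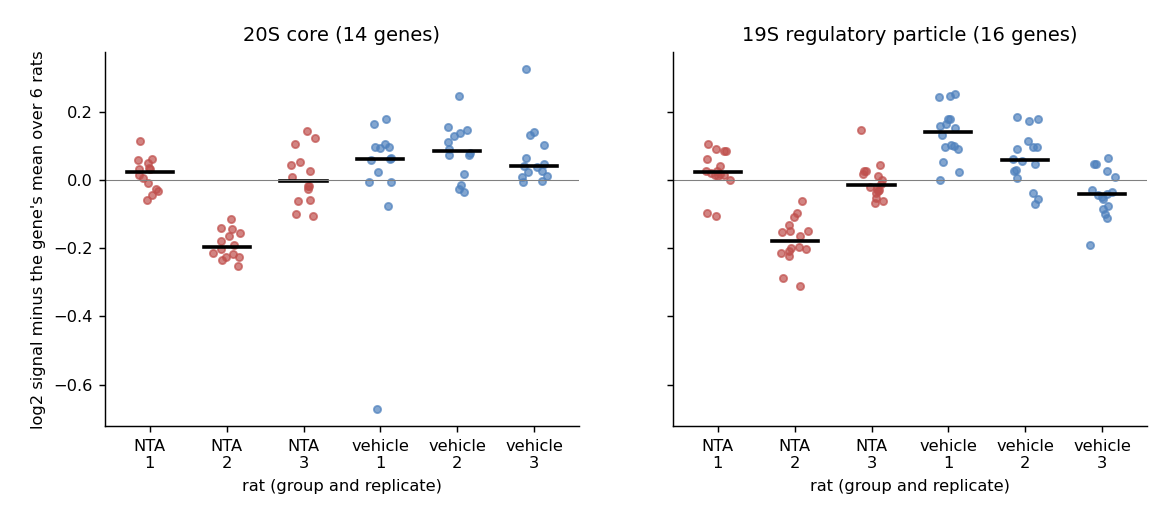
Log2 signal of each constitutive gene minus its own mean over the 6 rats (vertical axis), by rat (horizontal axis), for 14 core genes on the left and 16 regulatory particle genes on the right; points are genes and black bars are medians. NTA replicate 2 lies lowest, with medians of −0.20 and −0.18, and the single low point at vehicle replicate 1 is Psmb1.

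In the alpha ring, whose subunits gate the entrance to the core, 7 of 7 genes lay below 0, from −0.16 for Psma2 to −0.028 for Psma4, with a median of −0.078. Psma2 was at 3.92, 3.69 and 3.89 in NTA rats and at 4.01, 4.04 and 3.92 in vehicle rats. The groups of Psma2 did not overlap, though by less than 0.01 (log2 difference −0.16, SE 0.11, 95% interval −0.43 to 0.11; limma adjusted p = 0.787). Psma4 was at 6.42, 6.25 and 6.37 in NTA rats and at 6.28, 6.45 and 6.39 in vehicle rats, so its groups overlapped. Psma8, which takes the place of a standard alpha subunit in the testis, was dim at −4.24, −3.80 and −3.15 in NTA rats and −3.45, −3.42 and −3.08 in vehicle rats. That probe of Psma8 stood above background on all arrays, but its 3 other probes did not pass, so its difference of −0.42 (SE 0.28; limma adjusted p = 0.779) rests on 1 probe of 4.

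In the beta ring, which carries the catalytic sites, 6 of 7 genes lay below 0, with a median of −0.15. The groups did not overlap, with NTA lower, for 5 of the 7 (71.4%), namely Psmb2, Psmb3, Psmb4, Psmb6 and Psmb7, against 8.03% of all features. The log2 gap between the groups was 0.0018 for Psmb7, 0.015 for Psmb6, 0.016 for Psmb3, 0.091 for Psmb2 and 0.099 for Psmb4. Psmb4, a structural beta subunit, had the smallest p of the 46 genes. It was at 5.90, 5.70 and 5.90 in NTA rats and at 6.13, 6.10 and 5.996 in vehicle rats. Every NTA rat was below every vehicle rat, at 5.83 ± 0.11 in NTA rats and 6.08 ± 0.072 in vehicle rats (SD, n = 3 each). The ratio of NTA to vehicle was 0.844 (log2 difference −0.25, SE 0.11, 95% interval −0.51 to 0.016; limma, unadjusted p = 0.0617, adjusted p = 0.684), and the second probe of Psmb4 gave −0.20.

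The tightest vehicle values of the ring belonged to Psmb2 and Psmb3, both structural subunits, which were singled out after their values were seen. Psmb2 was at 5.31, 5.20 and 5.28 in NTA rats and at 5.43, 5.41 and 5.40 in vehicle rats (log2 difference −0.15). Psmb3 was at 5.68, 5.41 and 5.67 in NTA rats and at 5.70, 5.72 and 5.69 in vehicle rats (log2 difference −0.12). For Psmb3 it was NTA replicate 2 that stood apart, while the other NTA rats lay just under the vehicle rats. Psmb1 was the exception of the ring. It was at 3.77, 3.50 and 3.80 in NTA rats and at 2.98, 3.90 and 3.98 in vehicle rats, a difference of 0.068 (SE 0.28; limma adjusted p = 0.972) from a single probe. Vehicle replicate 1 was low by itself, and without it the difference was −0.25.

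The catalytic subunits of the constitutive core are Psmb5, with chymotrypsin-like activity, Psmb6, with caspase-like activity, and Psmb7, with trypsin-like activity. Each has an immunoproteasome counterpart that can replace it during assembly: Psmb8 for Psmb5, Psmb9 for Psmb6 and Psmb10 for Psmb7. Their RefSeq promoter windows on GRCr8 run from 250 bases before to 50 bases after the transcript start. They are shown because the immunoproteasome genes had the same order of rats, as described below. A link between motifs and that order was not tested. Capitals mark letters found in a search of both strands for 3 motifs: TGACNNNGC, the core of the antioxidant response element, TTCNNNGAA, the gamma-activated site, and the core of the interferon-stimulated response element, which is GAAA repeated after 2 bases of any kind.
Psmb8, chr20:4656982-4657281, minus strand: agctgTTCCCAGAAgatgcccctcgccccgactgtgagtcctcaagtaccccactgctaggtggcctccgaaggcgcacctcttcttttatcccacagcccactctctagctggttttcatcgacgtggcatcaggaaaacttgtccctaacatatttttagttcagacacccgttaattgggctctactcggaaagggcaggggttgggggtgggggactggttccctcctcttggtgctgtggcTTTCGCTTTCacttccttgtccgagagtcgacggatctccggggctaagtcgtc
Psmb9, chr20:4668750-4669049, plus strand: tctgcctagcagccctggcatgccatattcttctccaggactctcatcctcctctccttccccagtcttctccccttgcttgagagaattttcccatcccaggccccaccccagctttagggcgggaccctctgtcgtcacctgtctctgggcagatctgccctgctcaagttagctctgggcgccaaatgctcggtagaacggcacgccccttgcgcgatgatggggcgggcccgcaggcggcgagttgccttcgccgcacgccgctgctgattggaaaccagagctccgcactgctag
Psmb10, chr19:50743243-50743542, minus strand: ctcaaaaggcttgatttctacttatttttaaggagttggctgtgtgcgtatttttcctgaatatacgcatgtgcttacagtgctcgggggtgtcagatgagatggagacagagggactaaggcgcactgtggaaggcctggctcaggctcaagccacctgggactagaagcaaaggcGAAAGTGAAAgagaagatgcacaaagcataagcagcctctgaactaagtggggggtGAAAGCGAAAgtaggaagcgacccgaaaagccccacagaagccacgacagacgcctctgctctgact
Psmb5, chr15:32047330-32047629, minus strand: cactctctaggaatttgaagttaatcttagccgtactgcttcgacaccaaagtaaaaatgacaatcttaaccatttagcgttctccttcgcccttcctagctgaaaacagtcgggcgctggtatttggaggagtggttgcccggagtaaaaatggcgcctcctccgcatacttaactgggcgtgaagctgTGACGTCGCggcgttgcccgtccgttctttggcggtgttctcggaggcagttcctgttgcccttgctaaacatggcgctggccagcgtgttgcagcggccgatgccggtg
Psmb6, chr10:55737638-55737937, plus strand: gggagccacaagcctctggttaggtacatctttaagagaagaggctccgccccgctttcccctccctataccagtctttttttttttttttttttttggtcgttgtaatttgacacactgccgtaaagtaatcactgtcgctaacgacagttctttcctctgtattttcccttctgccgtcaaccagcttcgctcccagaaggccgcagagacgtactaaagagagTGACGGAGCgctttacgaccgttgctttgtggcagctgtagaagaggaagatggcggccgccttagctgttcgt
Psmb7, chr3:42827421-42827720, minus strand: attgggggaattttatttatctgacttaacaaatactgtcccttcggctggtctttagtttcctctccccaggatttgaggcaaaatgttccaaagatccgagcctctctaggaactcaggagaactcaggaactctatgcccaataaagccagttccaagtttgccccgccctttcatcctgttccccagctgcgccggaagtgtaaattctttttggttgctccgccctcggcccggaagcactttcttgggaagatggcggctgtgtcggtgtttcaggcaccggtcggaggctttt

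Psmb10 held 2 matches to the interferon-stimulated core, from positions −73 and −17 relative to the transcript start. Psmb8 held 1 on the minus strand, from position −4, and 1 match to TTCNNNGAA from position −245. In Psmb5 and Psmb6 the only matches were to TGACNNNGC, from positions −60 and −24, while Psmb7 and Psmb9 held none of the 3 motifs in these windows. The interferon-stimulated core was present in 2 of the 3 immunoproteasome windows, in 7 of the 42 proteasome genes that had a window (16.7%), and in 3.77% of the 27457 windows in the table. The antioxidant core was present in 4 of 13 core windows (Psma3, Psmb2, Psmb5 and Psmb6), in 8 of the 42 (19.05%) and in 12.2% of all windows. The gamma-activated site was present in 4 of the 42 (9.52%) and in 8.68% of all windows. The TTCNNNGAA letters read the same on both strands and were counted once. The window of Psmb9 overlaps that of Tap1, its neighbour on the opposite strand, by 44 bases, and the Tap1 window holds 1 match to the interferon-stimulated core. Among general promoter motifs, CCAAT was present in 22 of the 42 windows (52.4%) and 37.7% of all windows, GGGCGG, the GC box, in 30 (71.4%) and 34.9%, and TATAAA in 3 (7.14%) and 14.3%, on either strand and without capitals here.

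The 3 immunoproteasome genes had higher means in NTA rats, by less than the spread between vehicle rats. Psmb8 was at 3.02, 3.00 and 3.39 in NTA rats and at 2.99, 3.65 and 2.49 in vehicle rats. Psmb9 was at 2.87, 2.86 and 3.32 in NTA rats and at 2.81, 3.43 and 2.36 in vehicle rats. Psmb10 was at 4.27, 4.16 and 4.67 in NTA rats and at 4.08, 4.82 and 3.62 in vehicle rats. In each gene the highest and the lowest rat of all 6 were both vehicle rats, replicates 2 and 3, so the groups overlapped completely. The range among vehicle rats was 2.23-fold for Psmb8, 2.1-fold for Psmb9 and 2.3-fold for Psmb10. The log2 differences were 0.095 for Psmb8 (SE 0.29, 95% interval −0.61 to 0.80), 0.15 for Psmb9 (SE 0.29, −0.54 to 0.83) and 0.19 for Psmb10 (SE 0.31, −0.56 to 0.95), with limma adjusted p between 0.910 and 0.958. On a linear scale these intervals reach from 0.655-fold to 1.93-fold, so changes of that size in either direction are not excluded by them.

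The 6 rats fell in the same order for all 3 genes, from vehicle replicate 3, the lowest, through vehicle replicate 1 and NTA replicates 2, 1 and 3 to vehicle replicate 2, the highest. Of the 30353 features, 38 (0.125%) showed this order, the 3 genes included, and 0 of the other 43 proteasome genes did. Outside the proteasome, 1 of the 11 measured interferon and antigen processing genes had the same order, Tapbp, which encodes tapasin of the peptide-loading complex and was singled out after its values were seen. The SD within groups of the 3 immunoproteasome genes was 0.42 to 0.47, against a median of 0.099 over the core genes and 0.19 over all features. Of all features, 12.4% had an SD of 0.42 or more. Since vehicle replicate 3 was also the array alone on its scan day, the differences were recomputed without it. They were −0.18 for Psmb8, −0.11 for Psmb9 and −0.0825 for Psmb10, and by construction the same with scan day as a block. Without vehicle replicate 2 they were 0.40, 0.43 and 0.52, so each sign turned on which vehicle rat was left out.

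**Figure D3:**
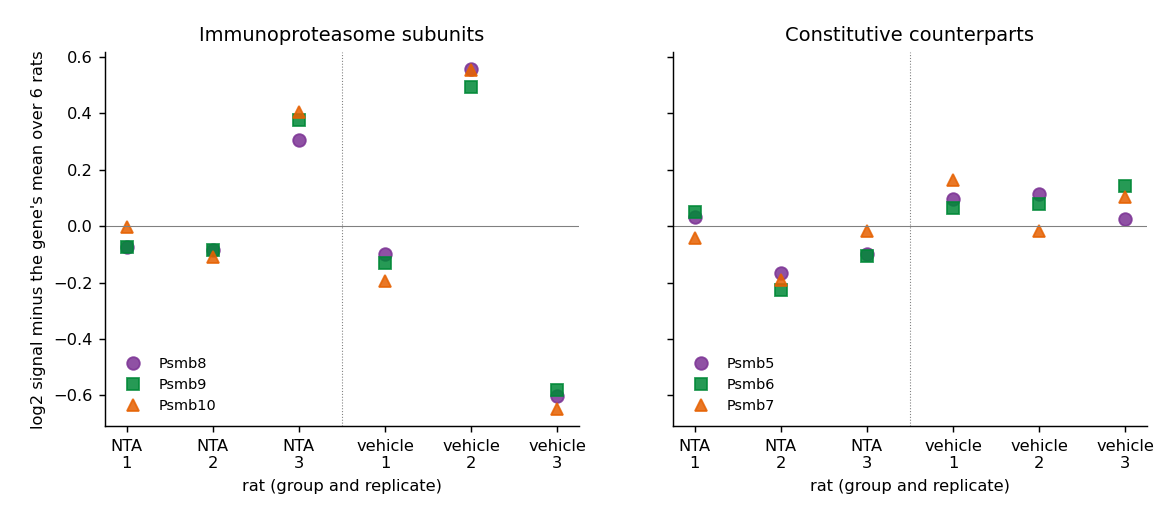
Log2 signal of each catalytic subunit gene minus its mean over the 6 rats (vertical axis), by rat (horizontal axis), with the immunoproteasome genes Psmb8, Psmb9 and Psmb10 on the left and the constitutive genes Psmb5, Psmb6 and Psmb7 on the right; each symbol is 1 gene in 1 rat. The immunoproteasome symbols overlie each other in each rat and span vehicle replicates 2 and 3, while the constitutive symbols stay closer to 0.

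The constitutive counterparts had small differences, all below 0. Psmb5 was at 5.03, 4.83 and 4.90 in NTA rats and at 5.10, 5.11 and 5.02 in vehicle rats, with overlapping groups (log2 difference −0.15, SE 0.10). Psmb6 was at 3.43, 3.16 and 3.28 in NTA rats and at 3.45, 3.46 and 3.52 in vehicle rats, without overlap (−0.19, SE 0.11). Psmb7 was at 3.27, 3.12 and 3.30 in NTA rats and at 3.48, 3.30 and 3.42 in vehicle rats (−0.17, SE 0.11), separate by less than 0.01. Limma adjusted p for these 3 genes was between 0.746 and 0.779. The ratio of each immunoproteasome subunit to its counterpart within a rat, on a log2 scale and set to 0 at the vehicle mean, was 0.25 ± 0.26 in NTA rats for Psmb8 over Psmb5, where the SD in vehicle rats was 0.54. It was 0.33 ± 0.30 for Psmb9 over Psmb6 (vehicle SD 0.57) and 0.36 ± 0.21 for Psmb10 over Psmb7 (vehicle SD 0.68), with n = 3 each. A two-sided exact permutation test gave p = 0.5, 0.4 and 0.5 for the 3 pairs, each 0.5 after Benjamini-Hochberg adjustment over them, where the smallest p that 3 against 3 allows is 0.1.

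Markers of leukocytes, which express the immunoproteasome constitutively, and interferon genes were read beside these values. All 5 leukocyte markers (Ptprc, Coro1a, Laptm5, Cd53 and Rac2) were above background on all arrays and lay above 0 in the difference, with a median of 0.28 and 0 past the test. Their summed signal was 30.9 to 51.2 in NTA rats and 24.2 to 36.1 in vehicle rats. It was lowest in vehicle replicate 3, as for the immunoproteasome, but highest in NTA replicate 3. The sum of the 8 Kupffer cell and macrophage markers, also all above 0 in the difference, was 96.1 to 192 in NTA rats and 59.3 to 141 in vehicle rats. It was again lowest in vehicle replicate 3, and highest in NTA replicate 3. Unlike the immunoproteasome genes, it was higher in vehicle replicate 1 (141) than in vehicle replicate 2 (114). Of the T and NK cell markers 8 of 10 passed the filter, and Cd3e and Cd2 were not above background in all rats of either group. The summed signal of those 8 was 2.46 to 4.17 in NTA rats and 2.27 to 3.58 in vehicle rats. It was again lowest in vehicle replicate 3, and highest in NTA replicate 3. In the difference 7 of the 8 lay above 0, with a median of 0.072 and 0 past the test. The B and plasma cell markers with a probe, 4 of 7, all lay above 0 in the difference, with a median of 0.74 and 0 past the test, and 3 of them were above background on all 6 arrays. Their summed signal was 0.83 to 1.42 in NTA rats and 0.53 to 0.80 in vehicle rats. These groups did not overlap, and the lowest rat was vehicle replicate 1 and the highest NTA replicate 2, unlike the order of the immunoproteasome genes. The part of these cells in the immunoproteasome values was not tested.

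Among 14 genes of the interferon gamma response and antigen processing, 11 passed the filter and 0 passed limma's test over all features, 0 also at an unadjusted p under 0.05, with 6 above 0 and a median of 0.038. Ifng itself had a probe but was not above background in all rats of either group. The smallest p belonged to Cxcl9, a chemokine induced by interferon gamma, at 0.62, 0.011 and 1.02 in NTA rats and 0.021, 0.44 and −0.42 in vehicle rats (log2 difference 0.53, SE 0.31; limma adjusted p = 0.745). B2m, the MHC class I light chain, was next at −0.12 (SE 0.12). The peptide transporter subunit Tap1, which pumps proteasome products into the endoplasmic reticulum, was singled out after its values were seen as the neighbour of Psmb9. It was at 0.17, −0.13 and 0.31 in NTA rats and at 0.17, 0.67 and −0.41 in vehicle rats, again with vehicle replicates 2 and 3 as the extremes. That pair of extremes was shared by 4 of the 11 genes and by 3.38% of all features.

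The ATPases Psmc1 to Psmc6 form the ring that unfolds substrates at the base of the regulatory particle, and 6 of 6 lay below 0 with a median of −0.16. Groups did not overlap for 2 of them (33.3%), Psmc2 and Psmc6, both with NTA lower, against 8.03% of features with NTA lower. Psmc6 had the smallest p of the ring, at 4.04, 3.99 and 4.11 in NTA rats and 4.19, 4.31 and 4.20 in vehicle rats (log2 difference −0.19, SE 0.10, 95% interval −0.43 to 0.047; limma adjusted p = 0.715). All of its NTA rats lay below its vehicle rats, and its other 2 probes gave −0.15 and −0.14, yet with normexp the difference was −0.021. At the other end Psmc3 was at 3.99, 3.74 and 3.92 in NTA rats and 4.08, 3.83 and 3.85 in vehicle rats, a difference of −0.040. Psmc3 was above 0 in 3 of the 16 alternatives, namely quantile normalization, without NTA replicate 2 and without vehicle replicate 1. Several of the others, such as limma's trend and robust options, could not change the difference itself.

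The 10 non-ATPase subunits of the base and lid all lay below 0, with a median of −0.084, and the groups overlapped for each. The range ran from Psmd12, a lid subunit, at −0.22 (SE 0.15; limma adjusted p = 0.784) to Psmd7, also of the lid, at −0.0063 (SE 0.097). Psmd12 was at 5.01, 4.69 and 4.97 in NTA rats and at 5.25, 5.18 and 4.89 in vehicle rats. Vehicle replicate 3 lay below 2 NTA rats for Psmd12, and without that array the difference was −0.33, while with normexp it was −0.023. Psmd14, the metalloprotease of the lid that removes ubiquitin chains from substrates, was at 1.20, 0.92 and 1.35 in NTA rats and 1.39, 1.25 and 1.12 in vehicle rats (−0.095, SE 0.15), with overlapping groups. The ubiquitin receptors of the base, Psmd2 and Psmd4, chosen with their values in view, had log2 differences of −0.012 and −0.047.

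The activators bind the ends of the core in place of the 19S particle, and their differences lay on both sides of 0. Psme1 and Psme2 form PA28 alpha-beta, which interferon gamma induces along with the immunoproteasome, and the Psme2 window held 1 interferon-stimulated core from position −53. Psme1 was at 6.33, 6.29 and 6.26 in NTA rats and at 6.17, 6.26 and 6.18 in vehicle rats (log2 difference 0.085, SE 0.095; limma adjusted p = 0.866). Its NTA values were the higher ones apart from 1 vehicle rat that overlapped them by less than 0.01. Psme2 was at 5.96, 5.77 and 5.97 in NTA rats and at 5.81, 6.05 and 5.86 in vehicle rats (−0.0052, SE 0.12). Psme3, the nuclear PA28 gamma, was at 3.29, 3.03 and 3.12 in NTA rats and at 3.32, 3.42 and 3.32 in vehicle rats without overlap (−0.21, SE 0.11; limma adjusted p = 0.730). The second probe of Psme3 went the other way, at 0.13, so the gene's direction differed between its probes. Psme4, the PA200 activator, was at 2.21, 2.04 and 2.15 in NTA rats and at 2.14, 2.17 and 1.92 in vehicle rats (0.059, SE 0.12).

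Psmf1, which encodes PI31, known as an inhibitor of the core in vitro, was at 3.85, 3.74 and 3.76 in NTA rats and at 4.03, 4.05 and 3.86 in vehicle rats. Its groups did not overlap, by less than 0.01, and its 3 probes gave log2 differences of −0.20 (SE 0.11; limma adjusted p = 0.729), −0.18 and −0.19. Of the 5 assembly chaperones, 3 lay below 0 by their brightest probes, with a median of −0.062. Psmg4 and Psmd9 were among these 3, and their probes differed in sign. Psmg4 was at −0.062 by its brightest probe and at 0.17 and 0.096 by the others. Psmd9 was at −0.10 by its brightest probe and at 0.11 and −0.064 by the others. Psmd5, a chaperone of the 19S base, was at 1.34, 1.32 and 1.20 in NTA rats and at 1.25, 1.41 and 1.05 in vehicle rats (0.053, SE 0.13). Psmd10, another base chaperone also known as gankyrin, was at 1.63, 1.41 and 1.62 in NTA rats and at 1.61, 1.67 and 1.75 in vehicle rats (−0.12, SE 0.11). The groups overlapped for both. Psmc3ip, a cofactor of meiotic recombination that carries the name by its binding to Psmc3, was at −1.20, −1.30 and −1.29 in NTA rats and −1.20, −1.43 and −0.94 in vehicle rats (−0.076, SE 0.14).

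Probes of the same gene mostly pointed the same way. Of 24 genes with more than 1 probe past the filter, 20 had probes of 1 sign and 4 did not (Psma3, Psmd9, Psme3 and Psmg4). Of all 78 probes past the filter, 61 gave a difference below 0. Psme3 had the widest spread between probes, at 0.33.

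Genes around the proteasome that carry no Psm symbol were read from lists chosen with the roles of the genes in mind. Of 12 partners 7 were measured, 5 of them below 0, with a median of −0.029 and 0 past the test. The smallest p among them belonged to Adrm1, the ubiquitin receptor Rpn13, at −0.30, −0.54 and −0.36 in NTA rats and −0.12, −0.15 and −0.36 in vehicle rats (log2 difference −0.19, SE 0.12; limma adjusted p = 0.768), followed by the proteasome-bound thioredoxin-like protein Txnl1 at −0.15 (SE 0.11). In the list of NFE2L1 and the factors that process it, 6 of 7 measured genes lay below 0, with a median of −0.095 and 0 past the test. The exception was Nfe2l1 itself, at 1.12, 1.15 and 0.92 in NTA rats and 0.92, 0.67 and 0.85 in vehicle rats. Its groups did not overlap, by less than 0.01 (log2 difference 0.25, SE 0.12, 95% interval −0.038 to 0.55; limma adjusted p = 0.692). Nploc4, an adaptor of the VCP unfoldase, was at −0.20 (SE 0.11), and with the mean of its probes at 0.020.

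Of 11 genes for ubiquitin, its activating enzymes and shuttle factors, 9 lay below 0, with a median of −0.081 and 0 past the test. Ubb, a polyubiquitin gene, was at 8.79, 8.81 and 8.77 in NTA rats and at 8.91, 9.14 and 9.04 in vehicle rats. Its groups did not overlap (log2 difference −0.24, SE 0.11, 95% interval −0.49 to 0.015; limma, unadjusted p = 0.0612, adjusted p = 0.683). In the partner, NFE2L1 and ubiquitin lists together, 0 genes had an unadjusted p under 0.05 in limma.

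**Figure D4:**
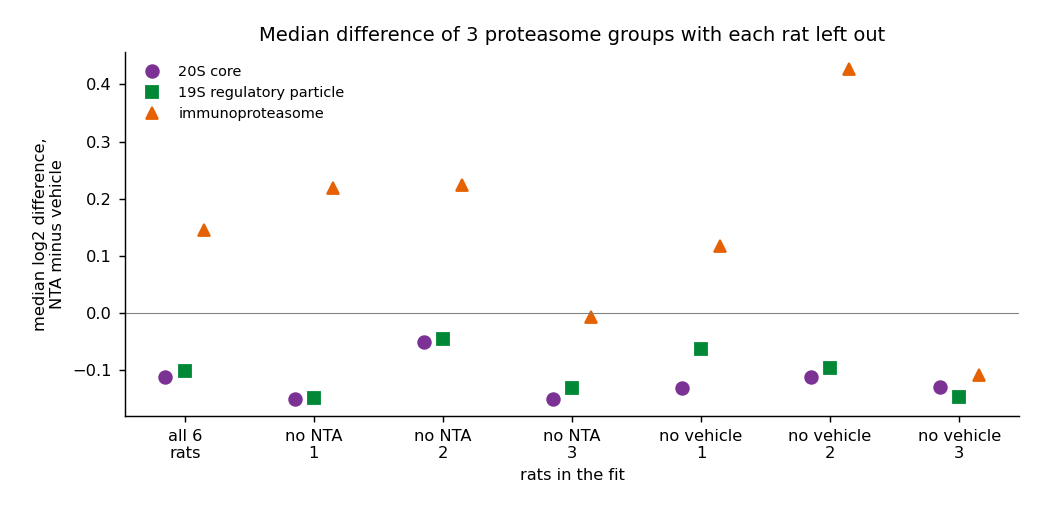
Median log2 difference of NTA from vehicle (vertical axis) for the core, the regulatory particle and the immunoproteasome genes, with all 6 rats and with each rat left out in turn (horizontal axis). The core and regulatory particle medians stay below 0 and come closest to it without NTA replicate 2 (−0.050 and −0.046), while the immunoproteasome median is −0.11 when vehicle replicate 3 is left out and 0.43 when vehicle replicate 2 is.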

How the data were processed

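Total RNA from 6 rat livers was hybridised to one-colour Agilent arrays (design 035170, build rn4, per the file headers). The submitters' processing notes name Feature Extraction 10.7 and the file headers 10.7.1.1. Per the file headers, the deposited processed signal is a linear intensity after background subtraction. The authors' deposited series table is a ratio, that intensity over the array's 75th percentile: 100% of probes matched within 0.0001 plus 0.2%.

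Main values were log2 processed signal minus log2 of the array's 75th percentile over 61657 non-control probes. Spots flagged non-uniform (1 to 14 per array, 0 of them on proteasome probes) were set to missing. The filter kept probes that were well above background in all 3 rats of either group. Accessions matched 1 RefSeq symbol (GRCr8) for 27460 probes and none for 34197, which stayed under their probe IDs. The brightest probe per gene was used, leaving 30353 features. Array coordinates are not given, since the builds differ; promoter coordinates are those of the RefSeq table on GRCr8.

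NTA and vehicle rats were compared by limma 3.58.1 (R 4.3.3; lmFit, eBayes, two-sided, Benjamini-Hochberg over all features, threshold 0.05), tested on simulated data. Intervals are at 95%. The number of arrays limits the precision. Gene lists, subunit pairs and motifs were chosen with earlier results of these data known, and lists carry no test. Named genes were the catalytic subunits, activators, Psmf1, Psmd14 and Psmc3ip, in each role group those with the highest and lowest difference and the smallest p, any member with an unadjusted p under 0.05, genes whose probes differed in sign by over 0.3, and 2 genes per other list, of which 1 is not reported here. The scanner files hold a median but no mean spot signal, so normexp (offset 50) was run on the median.

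Alternatives were normexp, quantile normalization, the authors' table, 2 other filters, the mean of a gene's probes, trend and robust, slide, scan day and replicate number as blocks, and each array left out. The replicate numbers were not taken as pairs in the main fit, and whether the animals were paired is not known here.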

Additional observations from a re-analysis of the deposited data

How the results depend on the processing

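Under all 16 alternatives 0 proteasome genes passed limma's adjusted threshold. At an unadjusted p under 0.05 there were 8 of 46 with normexp background correction (Psmb2, Psmb4, Psmb7, Psmc1, Psmc4, Psmd1, Psme3 and Psmf1), against 10.8% of all features. There was 1 of 46 with trend and robust (Psmb4), against 7.36% of features, and 1 of 46 without NTA replicate 3 (Psma8), against 6.79%. The core median ran from −0.15 to −0.050 and the regulatory particle median from −0.15 to −0.046 over the arrays left out, and the immunoproteasome median from −0.11 to 0.43. Calls over all features, 9 with all arrays, were 1 without NTA replicate 2, 4 without NTA replicate 1 and up to 8 without vehicle replicate 2. The replicate number as a replicate block gave 0 calls over all features, where limma without it gave 9, and 0 of the proteasome genes; at an unadjusted p under 0.05 it gave 7.65% of features. Same-numbered arrays correlated in their deviations at 0.17, −0.0066 and −0.075, and differently numbered arrays at −0.15 to 0.15. Each deviation is from a mean of 3 arrays, which ties the correlations together, so they cannot decide whether the animals were paired. None of the genes below passed in any setting. Vehicle replicate 3 was alone on its scan day, so that day as a block must give the differences seen without that array. In both settings the sign turned for Psmb8 (−0.18), Psmb9 (−0.11), Psmb10 (−0.0825), Psme4 (−0.020), Psmc3ip (0.047) and Psmd5 (−0.041). Without NTA replicate 3 it turned for Psmb8 (−0.033) and Psmb9 (−0.0062). Without NTA replicate 2 it turned for Psme2 (0.060), Psmd14 (0.025), Psma4 (0.021), Psmc3 (0.031) and Psmd7 (0.0235). Without vehicle replicate 1 it turned for Psmb1 (−0.25) and Psmc3 (0.040), and without vehicle replicate 2 for Psme2 (0.067), Psma4 (0.0098) and Psmd7 (0.019). With normexp it turned for Psme2 (0.0039), Psme4 (−0.020), Psmd7 (0.093) and B2m (0.085). With quantile normalization it turned for Psme2 (0.042), Psma4 (0.014), Psmc3 (0.0078), Psmd7 (0.025) and B2m (0.0053), and after averaging each gene's probes for Nploc4 (0.020) and B2m (0.011). With 1 array left out at a time, the differences spanned −0.18 to 0.40 for Psmb8, −0.11 to 0.43 for Psmb9, −0.0825 to 0.52 for Psmb10, −0.055 to 0.067 for Psme2, −0.020 to 0.11 for Psme4, −0.19 to 0.025 for Psmd14, −0.19 to 0.047 for Psmc3ip, −0.073 to 0.021 for Psma4, −0.25 to 0.25 for Psmb1, −0.093 to 0.040 for Psmc3, −0.029 to 0.0235 for Psmd7 and −0.041 to 0.14 for Psmd5. The cause of these turns was not tested. Signal over background limits Psma8 alone among the proteasome genes, 3 of whose 4 probes were not above background.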
